A study of Mus musculus with 7 samples.

Results

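Tmprss2, Prss8, St14, Spint1 and Spint2 encode 3 serine proteases anchored in the membrane of epithelial cells and 2 Kunitz-type inhibitors of such proteases. They were found in the deposited count table by gene ID, through the symbols of GENCODE M21, and are 5 of its 52636 genes. All 5 passed the filter on low counts, which left 16248 genes. The group was chosen by the tamoxifen against vehicle values of Tmprss2 in these libraries, and the other 4 genes joined it as relatives in function. For that comparison the values of the 5 genes are therefore a description, given with standard errors and without p-values.

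The study switched on ERK in pre-implantation mouse embryos and measured expression by RNA-seq. The mouse line was founded by injecting targeted embryonic stem cells into morulas. The embryos carried the CRAFR26 construct, a form of cRAF, a kinase upstream of ERK, that tamoxifen switches on, together with Sox2Cre, a Cre recombinase under the control of Sox2, a gene of the epiblast lineage. All of them, controls included, were flushed at embryonic day 2.5 and kept for 24 h in KSOM medium that held PD173074 at 250 nM, which blocks FGF receptors. The trophectoderm, the outer epithelium of the blastocyst, was taken off by immunosurgery. A pool of 10 inner cell masses gave the 2 ng of RNA behind a library. The tamoxifen group (time label 4 h) received 250 nM 4-hydroxytamoxifen and had 4 libraries, clone4_1, clone4_2, clone8_1 and clone8_2. The vehicle group (time label 0 h) received ethanol for 4 h and had 3, clone4_1, clone4_2 and clone8_1. The names give the clone, 4 or 8, and the number of the library within it. Clone 8 had 1 vehicle library, because per the series text another vehicle sample was dropped at quality control. The labels call all samples epiblast of embryonic day 3.5.

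Total counts ranged from 22981498 to 42294719 per library. The libraries numbered clone8_1 stood apart by the fewest genes with a count, 19287 in the tamoxifen and 19847 in the vehicle library, against 20555 to 22641 in the others. Vehicle clone8_1 also held fewer counts of short transcripts, with a median deviation from the median library of -2.15 on the log2 scale for 250 protein-coding genes under 600 nt and of -1.16 for 914 genes from 600 to under 1000 nt. Its deviation was 0 for 3367 genes from 1000 to under 2000 nt and 0.033 for 5452 genes from 2000 to under 4000 nt. The typical transcripts of Spint2 (1297.5 nt), Prss8 (1780.5 nt), Spint1 (2273 nt), Tmprss2 (3161 nt) and St14 (3259 nt) fall in those last classes. A class median does not show that a single gene was unaffected. Tamoxifen clone8_1 deviated the other way, by 0.37, 0.20, 0 and -0.070 from the shortest class to the longest. The fold changes of the 5 genes are given with and without both clone8_1 libraries.

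St14 encodes matriptase and Tmprss2 a relative of it, both type II transmembrane serine proteases, which sit in the membrane by a segment near their amino terminus. Prss8 encodes prostasin, which is held on the surface by a lipid anchor. Matriptase and prostasin act in one proteolytic cascade in many epithelia, and each can take part in activating the other. Spint1 and Spint2 encode the hepatocyte growth factor activator inhibitors HAI-1 and HAI-2, membrane proteins that block matriptase, prostasin and related enzymes through Kunitz domains. In the mouse, loss of either inhibitor disturbs the placenta, and removing matriptase relieves much of that effect. Known targets of the cascade include the adhesion protein EpCAM, the receptor PAR2 and the epithelial sodium channel.

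The promoter windows are shown because Tmprss2 differed between libraries of clone 4 while the inhibitors hardly did. They run from 250 bases before to 50 bases after the gene start and were taken from RefSeq (GRCm38.p6), where 3 of the 5 genes matched, Tmprss2, Spint1 and Spint2. Capitals mark the ETS core GGAAG, the short motif bound by ETS factors, many of which are targets of ERK, on either strand.
Tmprss2: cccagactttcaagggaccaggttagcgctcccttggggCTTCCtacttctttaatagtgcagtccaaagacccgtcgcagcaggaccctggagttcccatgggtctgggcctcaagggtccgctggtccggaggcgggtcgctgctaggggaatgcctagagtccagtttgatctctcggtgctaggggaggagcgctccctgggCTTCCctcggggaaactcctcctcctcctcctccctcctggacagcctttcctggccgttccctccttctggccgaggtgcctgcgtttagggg
Spint1: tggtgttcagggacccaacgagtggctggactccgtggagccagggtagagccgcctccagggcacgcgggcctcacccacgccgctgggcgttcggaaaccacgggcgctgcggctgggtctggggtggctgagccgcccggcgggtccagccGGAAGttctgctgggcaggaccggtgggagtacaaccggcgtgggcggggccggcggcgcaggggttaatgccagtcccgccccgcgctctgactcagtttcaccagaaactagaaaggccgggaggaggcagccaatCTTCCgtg
Spint2: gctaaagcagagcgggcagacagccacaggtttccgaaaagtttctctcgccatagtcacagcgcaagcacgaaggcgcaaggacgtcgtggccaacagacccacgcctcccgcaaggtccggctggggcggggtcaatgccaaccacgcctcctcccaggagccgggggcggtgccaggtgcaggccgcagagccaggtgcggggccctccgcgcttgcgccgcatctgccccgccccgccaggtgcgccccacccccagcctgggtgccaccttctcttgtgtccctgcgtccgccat

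The Tmprss2 window is at chr16:97611146-97611445 on the minus strand, the Spint1 window at chr2:119237110-119237409 on the plus strand and the Spint2 window at chr7:29281928-29282227 on the minus strand. The windows follow the gene starts of RefSeq. That of Spint2 lies wholly before the gene start in GENCODE M21, at 29281912. The ETS core occurred 2 times in the Tmprss2 window, 2 times in that of Spint1 and 0 times in that of Spint2, and 71.3% of 32544 windows of the same length held it. The TEAD motif GGAATG was found 1 time, in the Tmprss2 window, against 14.6% of all windows. The AP-1 motif TGANTCA was found 1 time, in the Spint1 window (7.79% of all windows). The TFAP2 motif GCCNNNGGC was found 1 time each in Spint1 and Spint2 (16.7%), and none of the 3 windows held the motif AGATAA, read by factors of the Gata family (11.2%), or a CArG box (1.64%). All motifs were searched on both strands, and none of them overlaps another of the searched matches here. The Tmprss2 window had 13 CpG dinucleotides, against 28 in Spint1, 26 in Spint2 and a median of 7 over all windows.

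Per length of transcript, the inhibitors were the more abundant of the 5 genes. Values here are CPM (raw counts scaled to library totals of equal size, with TMM factors), divided by the typical transcript length in kb. Over the 7 libraries the level was 216 ± 19.0 CPM per kb for Spint2, 91.5 ± 12.4 for Spint1, 50.9 ± 4.15 for St14, 41.2 ± 12.8 for Prss8 and 28.4 ± 14.8 for Tmprss2 (SD, n = 7). Spint2 and Spint1 did not overlap with any other of the 5 genes in any library. St14, Prss8 and Tmprss2 are neighbours in this order that overlap within their spread. In vehicle libraries of clone 4 their levels were between 45.4 and 59.9 CPM per kb.

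The summed level of the 3 proteases was 155, 145 and 118 CPM per kb in vehicle clone4_1, clone4_2 and clone8_1. It was 99.4, 93.5, 121 and 112 CPM per kb in tamoxifen clone4_1, clone4_2, clone8_1 and clone8_2. The summed level of both inhibitors stayed between 274 and 338 CPM per kb in all 7 libraries. Inhibitor transcripts outnumbered protease transcripts in each of them. The ratio of the sums was 1.97, 2.33 and 2.32 in the vehicle libraries and 3.04, 3.11, 2.60 and 2.95 in the tamoxifen libraries, in the same order. The groups did not overlap in it, but Tmprss2, whose values chose the group, enters the sum. The ratio of Spint1 to St14, by contrast, overlapped between the groups, from 1.68 to 2.12 in vehicle and from 1.48 to 1.94 in tamoxifen libraries. Tmprss2 made up 31.2%, 35.1% and 18.3% of the summed protease level in the vehicle libraries and 15.9% to 21.1% in the tamoxifen libraries.

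**Figure D1:**
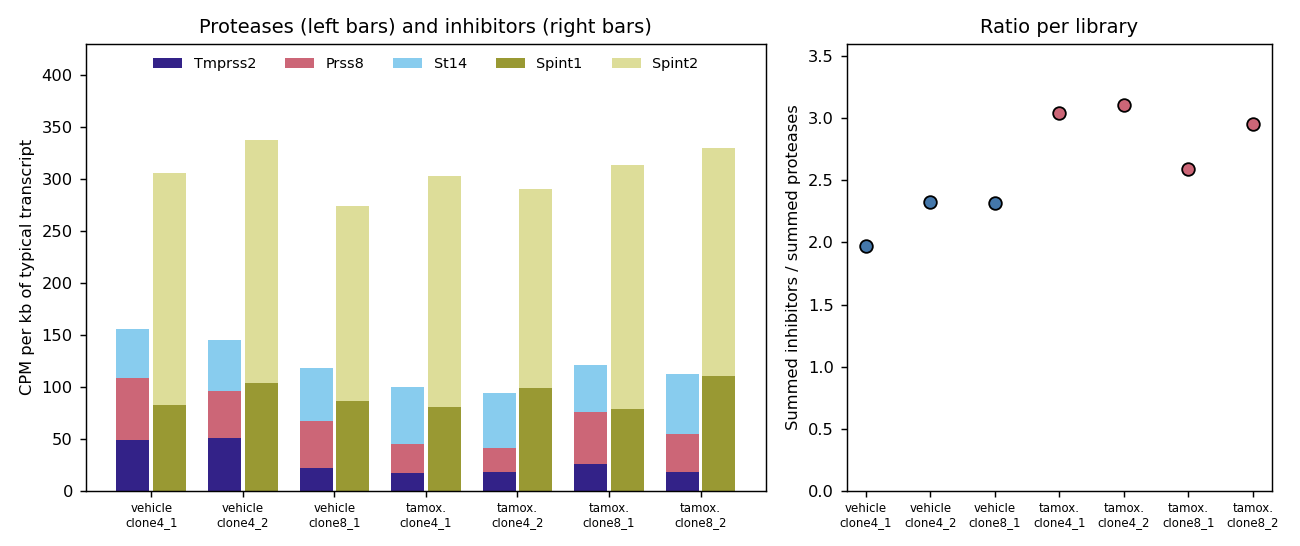
Left, level per kb of typical transcript (y axis, CPM per kb) in each library (x axis), with the 3 proteases stacked in the left bars and the 2 inhibitors in the right bars. Right, summed inhibitors divided by summed proteases in the same libraries, blue for vehicle and red for tamoxifen. Vehicle libraries lie between 1.97 and 2.33 and tamoxifen libraries between 2.60 and 3.11. Tmprss2, whose values chose the group, is part of the protease sum.

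Tmprss2 (ENSMUSG00000000385, chromosome 16, 97564682 to 97611195, minus strand, GRCm38, 14 exons in its longest coding transcript) was lower with tamoxifen in clone 4. In clone 8, with its single vehicle library, no such difference was seen. Vehicle clone4_1 and clone4_2 had 153 and 161 CPM and vehicle clone8_1 had 68.4 CPM. Tamoxifen clone4_1, clone4_2, clone8_1 and clone8_2 had 53.4, 56.2, 80.4 and 56.2 CPM. The vehicle libraries of clone 4 were the high ones, and the other 5 libraries lay together, with vehicle clone8_1 between both tamoxifen libraries of clone 8. The groups overlapped only in the clone8_1 pair, and with either of these libraries left out they did not. Without both, groups with all tamoxifen values lower were seen in 12% of genes, and within clone 4 in 19.7%. Raw counts were between 1303 and 6171, which leaves a small counting error.

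Vehicle libraries averaged 127 ± 51.3 CPM of Tmprss2 (SD, n = 3) and tamoxifen libraries 61.5 ± 12.7 CPM (SD, n = 4). The log2 fold change was -1.05 ± 0.29 (SE). Without both clone8_1 libraries it was -1.51 ± 0.13 (SE), and within clone 4 it was -1.53 ± 0.16 (SE), where the means were 157 and 54.8 CPM. In clone 8 the means were 68.4 CPM in the single vehicle library and 68.3 CPM over the tamoxifen libraries. Leaving out 1 library at a time moved the log2 fold change from -0.85, without vehicle clone4_2, to -1.36, without vehicle clone8_1. A log2 fold change at or below that of Tmprss2 was seen in 3.34% of genes with all libraries, in 2.16% without both clone8_1 libraries and in 2.57% within clone 4. These shares come from the contrast that brought the gene into the group.

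Across all genes, 0 of 16248 (0%) were called at an adjusted p under 0.05 (edgeR, quasi-likelihood, Benjamini-Hochberg), so none of the 5 genes was. At an unadjusted p under 0.05 there were 970 (5.97%), 437 higher (2.69%) and 533 lower (3.28%), and DESeq2 called 4 genes (0.0246%), none of them among the 5. Without both clone8_1 libraries 2 of 16877 genes (0.0119%) were called by edgeR, both lower. They were Bhlhe40, a transcriptional repressor named here after its values were seen, and Tmprss2, for which this is no test, since its values in this contrast chose the group. Within clone 4 the count was 0 of 16060 (0%), with 1264 genes (7.87%) at an unadjusted p under 0.05. DESeq2 called 127 genes without both clone8_1 libraries and 142 within clone 4.

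Prss8 (ENSMUSG00000030800, chromosome 7, 127925716 to 127930104, minus strand, 6 exons) had lower values with tamoxifen in clone 4 too. Vehicle clone4_1, clone4_2 and clone8_1 had 107, 80.9 and 80.3 CPM. Tamoxifen clone4_1, clone4_2, clone8_1 and clone8_2 had 50.1, 40.7, 89.2 and 66.1 CPM. Tamoxifen clone8_1 lay inside the vehicle range and the other 3 tamoxifen libraries lay below it. Prss8 averaged 89.3 ± 15.1 CPM with vehicle (SD, n = 3) and 61.5 ± 21.2 CPM with tamoxifen (SD, n = 4). The log2 fold change was -0.54 ± 0.26 (SE), and 10.6% of genes were at or below it. It was -0.85 ± 0.23 (SE) without both clone8_1 libraries and -1.05 ± 0.21 (SE) within clone 4, with 7.06% and 5.52% of genes at or below these values. In clone 8 the vehicle library had 80.3 CPM and the tamoxifen libraries a mean of 77.6 CPM. Prss8 overlaps Kat8 on the other strand by 122 bp of exon, and since the strand setting of the counting is not given in the sources used here, reads in that stretch cannot be assigned to one gene.

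St14 (ENSMUSG00000031995, chromosome 9, 31089402 to 31131853, minus strand, 19 exons) stayed within a narrow range. Vehicle clone4_1, clone4_2 and clone8_1 had 153, 159 and 168 CPM. Tamoxifen clone4_1, clone4_2, clone8_1 and clone8_2 had 177, 172, 148 and 185 CPM. The highest library was 1.26 times the lowest, and the lowest was tamoxifen clone8_1. The log2 fold change was 0.094 ± 0.15 (SE) with all libraries, 0.19 ± 0.12 (SE) without both clone8_1 libraries and 0.16 ± 0.14 (SE) within clone 4. Within clone 4 Tmprss2 went from 1.03 and 1.04 times the level of St14 per kb in vehicle to 0.311 and 0.336 times in tamoxifen libraries. In clone 8 it was 0.421 times in vehicle and 0.562 and 0.313 times in tamoxifen libraries.

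Spint1 (ENSMUSG00000027315, chromosome 2, 119237362 to 119249527, plus strand, 10 exons) showed no separation of the groups. Vehicle clone4_1, clone4_2 and clone8_1 had 188, 235 and 197 CPM. Tamoxifen clone4_1, clone4_2, clone8_1 and clone8_2 had 183, 224, 179 and 250.3 CPM. Both libraries numbered clone4_2 and tamoxifen clone8_2 were the higher ones. The log2 fold change was 0.019 ± 0.18 (SE), 0.049 ± 0.17 (SE) without both clone8_1 libraries and -0.063 ± 0.18 (SE) within clone 4.

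Spint2 (ENSMUSG00000074227, chromosome 7, 29256323 to 29281912, minus strand, 7 exons) was the steadiest of the 5 genes by range. Vehicle clone4_1, clone4_2 and clone8_1 had 289.6, 304 and 244 CPM. Tamoxifen clone4_1, clone4_2, clone8_1 and clone8_2 had 288, 249.2, 304 and 286 CPM. The highest was 1.25 times the lowest, against 1.26 times for St14, 1.40 times for Spint1, 2.62 times for Prss8 and 3.01 times for Tmprss2. By the SD of log2 CPM within groups St14 was the steadier, at 0.12 against 0.14 for Spint2. The log2 fold change was 0.014 ± 0.15 (SE), -0.12 ± 0.12 (SE) without both clone8_1 libraries and -0.15 ± 0.14 (SE) within clone 4. The signs for Spint1 and Spint2 differed between these sets of libraries.

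**Figure D2:**
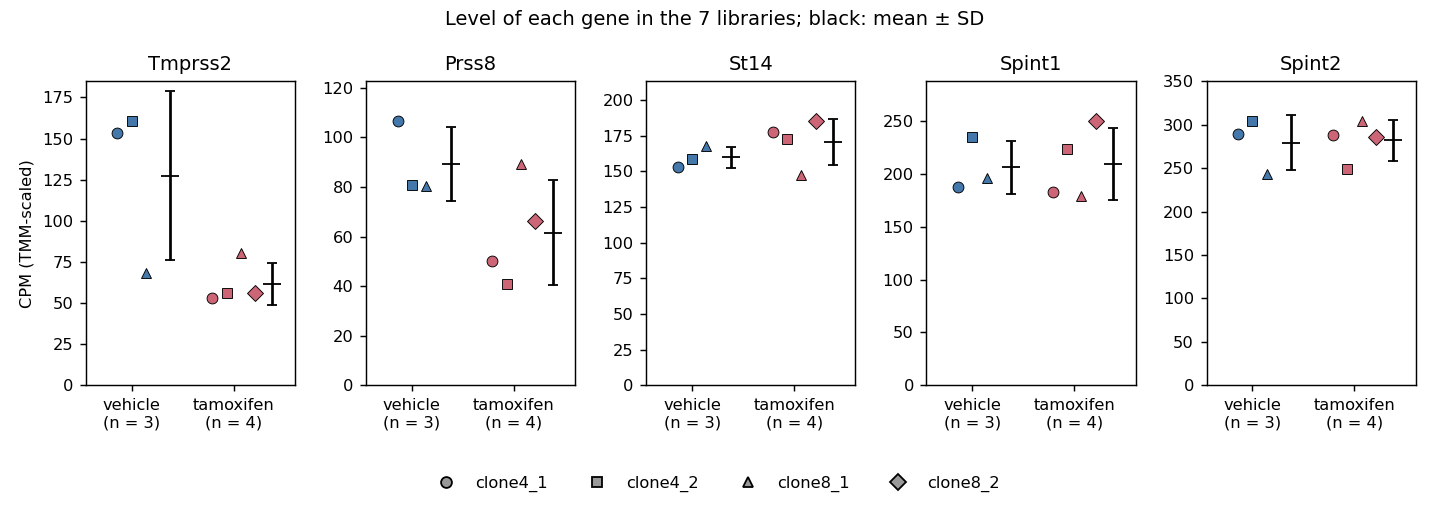
CPM (y axis, from 0) of each gene in the vehicle and tamoxifen libraries (x axis), with a symbol for each library and the mean ± SD in black. Tmprss2 is at 153 and 161 CPM in the vehicle libraries of clone 4 and at 53.4 to 80.4 CPM in all others.

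**Figure D3:**
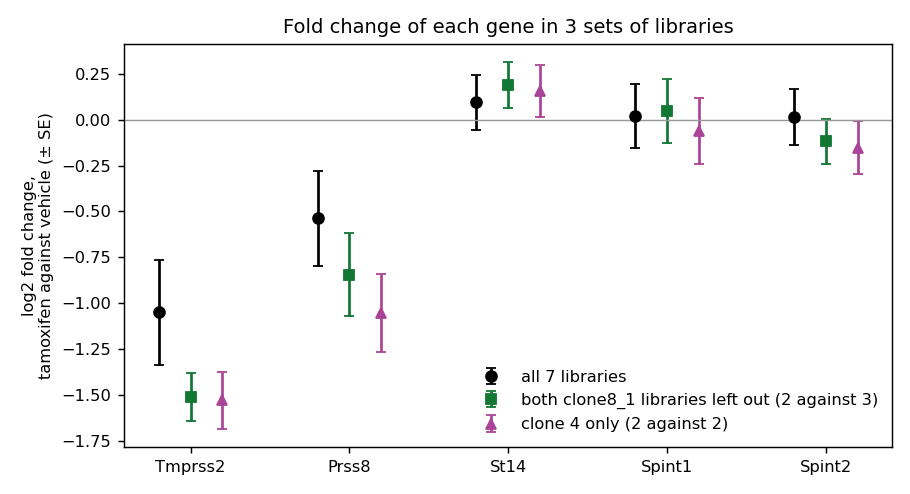
Log2 fold change of tamoxifen against vehicle ± SE (y axis) of each gene (x axis) with all 7 libraries, without both clone8_1 libraries and within clone 4. Tmprss2 lies at -1.05, -1.51 and -1.53 and Prss8 at -0.54, -0.85 and -1.05, while the other genes lie between -0.15 and 0.19.

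The difference between the clones in the response to tamoxifen is the interaction of clone and condition. It is given for the 5 genes as a description without p-values, since it holds the values of Tmprss2 that chose the group and rests on the single vehicle library of clone 8. For Tmprss2 the log2 fold change in clone 8 minus that in clone 4 was 1.52 ± 0.35 (SE), and for Prss8 it was 1.00 ± 0.38 (SE). For St14, Spint1 and Spint2 it was -0.17 ± 0.27, 0.18 ± 0.35 and 0.42 ± 0.25 (SE).

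Of all genes, 514 (3.16%) were called for this interaction by edgeR, 510 of them (3.14%) with the higher log2 fold change in clone 8. The single vehicle library of clone 8 is the one with few counts of short transcripts, and the part of that in these calls was not tested. Between 52 genes, without tamoxifen clone4_2, and 1016 genes, with DESeq2, were called in the alternatives.

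Between the clones themselves, with condition in the model, none of the 5 genes differed at an adjusted p under 0.05 by edgeR. Of all 16248 genes, that test called 0 (0%), and 509 (3.13%) were under 0.05 before adjustment. Clone 8 minus clone 4 was -0.25 ± 0.32 (SE, log2) for Tmprss2 and 0.39 ± 0.26 (SE) for Prss8, both with an adjusted p of 0.983 (edgeR). The smallest adjusted p over all genes was also 0.983 (edgeR), so the test set no gene apart. Its model takes the clone difference as equal in both conditions. For Tmprss2, clone 4 and clone 8 had means of 157 and 68.4 CPM with vehicle and 54.8 and 68.3 CPM with tamoxifen. The sign for Tmprss2 turned without vehicle clone8_1, to 0.32. St14, Spint1 and Spint2 had differences from -0.030 to 0.0067 with standard errors from 0.16 to 0.19.

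The genes whose pattern over the 7 libraries lay closest to that of a given gene were found by the root mean square difference of their deviations from their own mean log2 CPM. For Tmprss2 the nearest 5 included Dusp1 (0.23), which encodes a phosphatase of MAP kinases, Zfp667 (0.24), Rasd1 (0.27) and Eea1 (0.27), where the median over 7808 protein-coding genes was 0.70. They were picked for this likeness. Dusp1 had 71.5 and 79.1 CPM in the vehicle libraries of clone 4 and 29.3 to 36.6 CPM in the other 5 libraries. With both clone8_1 libraries left out, 2 of the nearest 5 genes were again among the nearest. For Prss8 the nearest genes were Prkag2 (0.15), Slc44a4 (0.16) and Kat14 (0.17).

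For the genes with a narrow range, all distances were small. The nearest were Nectin2 (0.059), Lman1 (0.066) and Ube4b (0.068) for St14, Scaf4 (0.078), Rad21 (0.089) and Rdh10 (0.090) for Spint1, and Nudt21 (0.038), Laptm4a (0.042) and Eef1d (0.043) for Spint2. Among the 5 genes, the closest pair was St14 and Spint1 (0.15) and the farthest St14 and Tmprss2 (0.71). Tmprss2 and Prss8 were 0.43 apart. Prss8 was nearer to Spint2 (0.41), to Epcam (0.28) and Cldn7 (0.28), and to the trophectoderm markers Elf3 (0.26) and Gata3 (0.31). It was farther from the trophectoderm marker Krt7 (0.59). The distances to Epcam, Cldn7 and Gata3 were not particular to Prss8. Spint2 lay 0.17 from Cldn7, 0.22 from Epcam and 0.28 from Gata3, and St14 lay 0.27 from Epcam and 0.31 from Gata3. Spint2 and St14 lay farther from Elf3, at 0.33 and 0.38. Of the 10 trophectoderm markers given below, distances were taken for these 3 only, which had an unadjusted p under 0.05 (edgeR).

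This list and the lists of related genes below were chosen with earlier results of these data known, so their p-values are a description. Known substrates and partners of these proteases formed a list of 15 genes, of which 9 passed the filter. None of the 9 was called by edgeR over all genes (background 0%). 7 of the 9 had lower and 2 higher mean values with tamoxifen, with a median log2 fold change of -0.28 against 0.019 over all genes. Cdcp1 was 1 of 2 with an unadjusted p under 0.05 (background 5.97%).

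Cdcp1, a membrane protein cleaved by serine proteases, had 28.8, 17.1 and 19.3 CPM in vehicle clone4_1, clone4_2 and clone8_1 and 12.9, 16.0, 7.11 and 13.0 CPM in tamoxifen clone4_1, clone4_2, clone8_1 and clone8_2. The groups did not overlap. The fold change on the log2 scale was -0.83 ± 0.31 (SE, unadjusted p = 0.0222 and an adjusted p = 0.794 by edgeR), and -0.72 without both clone8_1 libraries. Plaur, the receptor of urokinase, also had all tamoxifen values (35.1 to 44.2 CPM) below all vehicle values (45.7 to 53.1 CPM), with a log2 fold change of -0.35 ± 0.17 (SE). Among all genes 8.45% had groups without overlap, 4.74% with lower and 3.71% with higher tamoxifen values.

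EpCAM, an adhesion protein that matriptase cleaves, had the highest CPM of the list. Vehicle libraries had 1517 ± 62.1 CPM of Epcam (SD, n = 3) and tamoxifen libraries 1236 ± 203 CPM (SD, n = 4). The difference on the log2 scale was -0.30 ± 0.16 (SE). Cldn7, the claudin that EpCAM binds, was at 569.8 ± 32.1 CPM (SD, n = 3) and 503 ± 97.8 CPM (SD, n = 4). F2rl1, which encodes PAR2, was at 54.6 ± 9.89 CPM (SD, n = 3) and 46.0 ± 15.5 CPM (SD, n = 4), and its sign turned within clone 4, to 0.031. For these 3 genes the groups overlapped.

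Other substrates were hardly counted. Scnn1b and Scnn1g, subunits of the epithelial sodium channel, Hgf, the growth factor whose activation gave the inhibitors their name, and Hgfac had at most 3 counts in any library. For a library, a count of 0 allows up to 0.0709 to 0.131 CPM, from 3 counts of its total, for counting error only. Scnn1a had at most 21 counts and Met, the receptor of Hgf, at most 17.

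Of 18 other type II transmembrane serine proteases, 17 were found in the table, 5 had 0 counts in all 7 libraries and 8 had at most 3. Tmprss9, Tmprss13 and Hpn passed the filter, and none of the 3 was called by edgeR or was under 0.05 before adjustment. The 17 genes summed to 2.44 to 4.32 CPM in vehicle and 1.21 to 4.41 CPM in tamoxifen libraries. Of 7 other serine proteases with a membrane anchor, 4 passed the filter, 3 with higher and 1 with lower means, and none had an unadjusted p under 0.05. Tpsg1, a transmembrane tryptase, had 10.2 ± 6.71 CPM with vehicle (SD, n = 3) and 17.0 ± 5.21 CPM with tamoxifen (SD, n = 4), and its groups overlapped.

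Of 11 other genes with Kunitz domains, 7 passed the filter, 5 with higher and 2 with lower means, and none was called. Spint5 and Col7a1 had an unadjusted p under 0.05, both higher, where 2.69% of all genes were higher at that level. Spint5 had 6.58, 3.36 and 1.49 CPM in the vehicle libraries and 7.79, 6.81, 9.43 and 8.91 CPM in the tamoxifen libraries, with a difference on the log2 scale of 1.11 ± 0.46 (SE, unadjusted p = 0.0361 and an adjusted p = 0.794 by edgeR). The groups did not overlap (3.71% of all genes with higher tamoxifen values), with vehicle clone4_1 close to the lowest tamoxifen library. The typical transcript of Spint5 has 443 nt, in the class under 600 nt where vehicle clone8_1, its lowest library, deviated by -2.15 and tamoxifen clone8_1, its highest, by 0.37 on the log2 scale, and the part of this in its values was not tested. Without both clone8_1 libraries its log2 fold change was 0.65. Col7a1, the anchoring fibril collagen, stood at a log2 fold change equal to 0.69 ± 0.30 (SE, unadjusted p = 0.0462 and an adjusted p = 0.794 by edgeR), and Aplp2, a relative of the amyloid precursor protein at 539 CPM on average, one of -0.19 ± 0.24 (SE). The sign for Aplp2 turned within clone 4, to 0.049, and without both clone8_1 libraries, to 0.11.

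The 5 genes are epithelial, so markers of the cell types that a pool of inner cell masses could hold are given beside them. The 3 marker lists were chosen with earlier results of these data known, so all p-values of the lists and their genes are a description. The permutation test of the lists left clone out. All 10 trophectoderm markers were counted in every library, none of them at 0, and summed to 8530.4 to 11227.5 CPM in vehicle and 6546 to 9534 CPM in tamoxifen libraries. Their mean log2 CPM was 8.29, 8.17 and 7.99 in vehicle clone4_1, clone4_2 and clone8_1 and 7.80, 7.46, 8.08 and 7.57 in tamoxifen clone4_1, clone4_2, clone8_1 and clone8_2. The difference of -0.42 between the groups had an exact permutation p of 0.0857 (adjusted p = 0.129 over 3 lists). It was -0.63 without both clone8_1 libraries and -0.60 within clone 4, against -1.53 for Tmprss2, -1.05 for Prss8 and 0.16 for St14. These set a list mean against single genes. The log2 fold changes of the single markers within clone 4 ran from -1.78 for Krt7 to -0.11 for Hand1. All 10 had lower means with tamoxifen, 3 of them under 0.05 before adjustment (edgeR), where 3.28% of all genes were lower at that level. In a pool, fewer cells of a type and less RNA per cell cannot be told apart, and the part of trophectoderm cells in the values of Tmprss2 and Prss8 was not tested.

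The 9 tested markers of naive epiblast were present in every library, and their list summed to 1665 to 2044 CPM in vehicle and 1708 to 2199 CPM in tamoxifen libraries. Their mean log2 CPM differed by 0.32 (exact permutation p = 0.143, adjusted p = 0.143). Primitive endoderm markers, 9 of 10 of them tested, differed by 0.66 with all tamoxifen libraries above all vehicle libraries (exact permutation p = 0.0286, the smallest that 35 splits of 3 and 4 libraries can give, adjusted p = 0.0857). Without vehicle clone4_1 that difference was 0.39. The sums of the primitive endoderm list overlapped, with 845 to 1148 CPM in vehicle and 884 to 1031 CPM in tamoxifen libraries. Of the tested markers, 6 of primitive endoderm were higher and 3 lower, and 7 of naive epiblast were higher and 2 lower. Of the primitive endoderm markers, Sox17 and Lama1 had the largest log2 fold changes, 2.58 and 1.35, with vehicle means of 2.96 and 4.21 CPM. Gata6, Gata4, Col4a2 and Col4a1 were at 0.47 to 0.58. The 3 lower ones were Pdgfra (-0.50), Dab2 (-0.21, at 686 CPM on average) and Fgfr2 (-0.067). Before adjustment, edgeR gave a p under 0.05 for 2 of the 9 primitive endoderm markers and 1 of the 9 of naive epiblast, all higher. Among all genes, 2.69% were higher at that level.

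**Figure D4:**
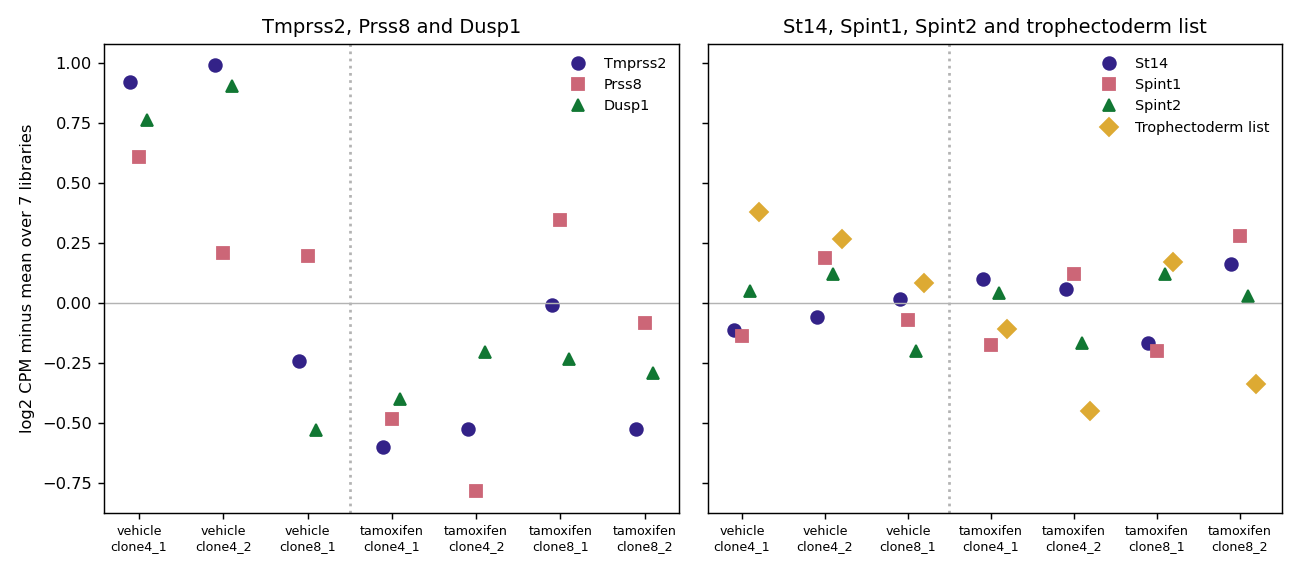
Log2 CPM minus its mean over the 7 libraries (y axis) in each library (x axis), on the left for Tmprss2, Prss8 and Dusp1, on the right for St14, Spint1, Spint2 and the mean of the 10 trophectoderm markers. The dotted line separates vehicle from tamoxifen libraries; Tmprss2 and Dusp1 are high in both vehicle libraries of clone 4, and St14, Spint1 and Spint2 stay closer to 0.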

How the data were processed

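RNA-seq counts of 7 libraries were used, 3 vehicle and 4 tamoxifen, grouped by the treatment label. The authors deposited raw counts, 1 per Ensembl gene and library, without normalisation. Per the submitters' processing notes, bcl2fastq 2.19.1, STAR 2.5.3a and the mm10 build were used; the counting program, annotation, strand setting and handling of duplicates are not given in the sources used here. The libraries were amplified from low input, so counting error understates their error, and p-values measure the spread between pools.

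Symbols, positions and lengths came from GENCODE M21 (GRCm38), which matched 52489 of 52636 genes. Typical length is the median over coding transcripts of the basic set. Counts were tested over all genes with edgeR 4.0.16 (R 4.3.3): TMM factors, its expression filter by group, a quasi-likelihood test with no term but condition, Benjamini-Hochberg adjustment and a threshold of 0.05. Log2 CPM used a prior count of 2. DESeq2 1.42.0 served as an alternative, and the fits were tested on simulated data. List genes with a mean of at least 10 CPM or an unadjusted p under 0.05 are named, with the 5 genes nearest to Tmprss2 and the 3 nearest to each other member. Members and lists were chosen with earlier results of these data known. For 1 gene that this rule names, the result is not reported here.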

Additional observations from a re-analysis of the deposited data

Results flagged for a closer look

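In 21 groups of tamoxifen values checked, 1 library lay far from the others in 2. Tmprss2 was at 80.4 CPM in tamoxifen clone8_1, against 53.4 to 56.2 CPM in the other 3 tamoxifen libraries, and the gap to the nearest of them was 0.896 of the whole range, above Dixon's limit for 4 samples. The ratio of Tmprss2 to St14 per kb singled out the same library, with 0.562 against 0.311 to 0.336 and a gap of 0.900 of the range. Both share the Tmprss2 values. Chance gives such a gap in about 1 in 20 groups of values that were not selected. The Tmprss2 values of this comparison chose the group, so that rate does not apply to them.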

How the results depend on the processing

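Of 424 recomputed values, 380 kept their direction and their side of the threshold or moved by less than the spread between libraries. Tmprss2, Prss8 and St14 kept the sign of their fold change in all 15 alternatives. These refit the libraries whose Tmprss2 values chose the group, so the kept sign of Tmprss2 is no independent result. No alternative used clone 8 alone, which has a single vehicle library. There the log2 ratio of mean CPM was -0.0024 for Tmprss2, -0.049 for Prss8 and -0.010 for St14. Within clone 4 only, Prss8 moved to -1.05 and Spint2 to -0.15, Aplp2 turned to 0.049 and F2rl1 to 0.031. Aplp2 was at 0.11 without both clone8_1 libraries. The cause was not tested. Over all genes, DESeq2 called 4 and the fit without both clone8_1 libraries 2. Without both clone8_1 libraries, 224 genes were called with no filter and 127 by DESeq2, and within clone 4, 217, 142 and, at a mean count of at least 50, 2 (alternatives chosen after seeing the data). The number of related genes with an unadjusted p under 0.05 was 4, against 2 without both clone8_1 libraries and 1 to 4 with 1 library left out.

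No pairing by the numbers shared between groups was seen: the deviations of same-numbered libraries correlated at 0.0078, 0.021 and -0.068. With so few libraries per group, these values cannot exclude a pairing. With the replicate block, 0 genes were called, the fold change of Tmprss2 was -0.95 and 2 related genes had an unadjusted p under 0.05.

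Between clones, St14 was at 0.017 with DESeq2 and with its size factors and at 0.0020 without a filter. With 1 library left out, Tmprss2 ranged from -0.54 to 0.32, St14 from -0.069 to 0.091, Spint1 from -0.14 to 0.10 and Spint2 from -0.11 to 0.14. The number of genes called between clones was 28 without a filter and 13 by DESeq2. The interaction of Tmprss2, a description only, was 1.53 without a filter and 1.49 with DESeq2 and ranged from 1.24 to 1.76 with 1 library left out. That of Spint1 ranged from -0.071 to 0.41. The interaction was called in 991 genes without a filter, 1016 by DESeq2 and 52 to 695 with 1 library left out. It has no value without vehicle clone8_1. The 3 marker lists kept their signs in all 10 alternatives.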
